A study of Mus musculus with 8 samples.

Results

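The nuclear genes for the respiratory chain and the ATP synthase were followed in cortical cells of mouse embryos after knockdown of the transcription factor FoxO6. Members were all array probes whose paired gene symbol begins with Ndufa, Ndufb, Ndufc, Ndufs, Ndufv, Sdh, Uqcr, Cox4i, Cox5, Cox6, Cox7, Cox8 or Atp5, with the Ndufaf assembly factors left out. The rule found 132 of 41174 gene probes, which stand for 83 of 25310 genes and unnamed probes. By prefix, 36 genes fell to complex I, 6 to complex II, 8 to complex III, 18 to complex IV and 15 to complex V. A prefix is not a function. Sdhaf1 and Sdhaf2 are assembly factors of complex II, Atp5s and Atp5sl now carry the names Dmac2l and Dmac2, and Ndufa4 is now counted with complex IV by many authors.

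At E14.5, siFoxO6-3, siFoxO6-2 or a scrambled, non-targeting siRNA was brought into the cortex of C57/BL6 embryos by electroporation in the womb, each at 1 ug/ul and each together with a vector for green fluorescent protein at 1 ug/ul. At E16.5 the cortex was dissociated, cells were sorted, and cortices were combined into 4 pools for siFoxO6-3, 4 pools for siFoxO6-2 and 1 scrambled pool. Each siRNA pool was hybridised with the scrambled pool on a 2-colour array, giving 8 arrays, with the siRNA pool in Cy5 on 2 arrays of each siRNA and in Cy3 on the other 2. All embryos carried an electroporation and the fluorescent protein, so both belong to the comparison on either side. The scrambled pool is a single sample shared by all 8 arrays. The p-values below therefore leave out the spread between scrambled pools, and in pooled tissue RNA fewer cells of a type and less RNA per cell cannot be told apart.

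Complexes I to IV of the inner mitochondrial membrane pass electrons on to oxygen, and complexes I, III and IV pump protons as they do so. The ATP synthase, complex V, lets the protons back and makes ATP. Every complex but complex II mixes subunits coded in the nucleus with subunits coded in mitochondrial DNA, and several nuclear subunits exist as isoforms of muscle, lung or testis. In the developing cortex these complexes are present in progenitors and neurons alike.

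The siRNAs and the promoters of 4 members are shown because the comparisons rest on the first and describe genes of the second. The siRNA strands are given as the study lists them, with the 2 leading bases unspecified and the 19 specified bases in capitals. Both are directed at Foxo6, on chromosome 4.
siFoxO6-3: nnCCAUCAGCCUUAUGACGCU
siFoxO6-2: nnACAUGCCAGUGACGACUAC

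Promoters came from RefSeq (GRCm38.p6), as the 250 bases before and 50 bases after each gene's start, and 70 of the 83 members matched, with 76 promoters. On both strands 4 sets of letters were searched: GCATGCG, the middle of the sites of nuclear respiratory factor 1 (NRF1), CCGGAAG, a core of ETS family sites, AAGATGG, a stretch of YY1 sites, and GTAAACA, a FoxO site. None of the 4 contains another, and GCATGCG and its reverse often overlap. CCGGAAG or its reverse stood in 23.7% of member promoters, against 8.86% of all 32851 promoters of the same length and 11.6% of those of protein-coding genes. GCATGCG stood in 13.2%, against 3.58% of all and 4.44% of protein-coding ones, and AAGATGG in 17.1%, against 6.34% and 6.24%. The FoxO letters stood in 3.95% of member promoters, against 3.65% of all and 3.01% of protein-coding ones. Counted by gene the order turned, with 2.86% of members, 4.05% of all genes and 3.45% of protein-coding genes. Both promoters of Atp5sl, whose windows overlap, hold the FoxO letters. The median GC content was 58.0% in member promoters, 52.7% in all and 56.3% in protein-coding ones. The part of base composition in these shares was not tested. A match describes letters, and no match says only that the letters are not in this window. The promoters of 3 genes that rose and of Uqcrc1, which fell, follow, with the matched letters in capitals. They were picked from the genes that passed the test below and had a match. Ndufb3, Ndufv2, Cox7b, Atp5b, Atp5d and Atp5s also passed it and had no match. Atp5sl, not printed, passed it and had AAGATGG and the FoxO letters.
Ndufs4, chr13:114388045-114388344, minus strand, AAGATGG: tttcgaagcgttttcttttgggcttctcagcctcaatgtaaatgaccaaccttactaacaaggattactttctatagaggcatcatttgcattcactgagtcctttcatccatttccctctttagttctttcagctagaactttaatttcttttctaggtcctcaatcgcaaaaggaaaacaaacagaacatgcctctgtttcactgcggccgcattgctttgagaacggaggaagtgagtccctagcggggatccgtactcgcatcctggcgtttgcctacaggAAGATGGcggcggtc
Sdhaf1, chr7:30322326-30322625, minus strand, CCGGAAG read on the other strand: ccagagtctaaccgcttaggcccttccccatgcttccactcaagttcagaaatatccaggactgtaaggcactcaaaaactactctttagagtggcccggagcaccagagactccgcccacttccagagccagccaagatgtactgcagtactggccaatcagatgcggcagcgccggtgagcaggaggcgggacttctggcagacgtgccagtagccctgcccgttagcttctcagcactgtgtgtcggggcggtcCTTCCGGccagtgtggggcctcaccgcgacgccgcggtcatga
Atp5l, chr9:44920693-44920992, minus strand, GCATGCG on both strands and CCGGAAG read on the other strand: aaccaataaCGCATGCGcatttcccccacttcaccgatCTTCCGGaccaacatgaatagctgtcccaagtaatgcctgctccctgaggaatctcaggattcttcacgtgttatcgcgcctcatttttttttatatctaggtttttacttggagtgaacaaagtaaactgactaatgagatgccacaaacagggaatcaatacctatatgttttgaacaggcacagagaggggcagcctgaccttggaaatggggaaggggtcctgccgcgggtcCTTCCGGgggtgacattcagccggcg
Uqcrc1, chr9:108936398-108936697, plus strand, GCATGCG on both strands: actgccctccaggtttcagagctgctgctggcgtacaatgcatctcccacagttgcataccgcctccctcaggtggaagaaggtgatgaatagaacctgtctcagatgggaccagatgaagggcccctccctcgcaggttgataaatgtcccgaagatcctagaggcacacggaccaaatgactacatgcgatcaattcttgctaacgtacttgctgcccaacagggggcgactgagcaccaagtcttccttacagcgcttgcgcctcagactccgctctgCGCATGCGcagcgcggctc

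Foxo6 itself had log2 ratios of siRNA over scrambled of -1.36, -2.31, -1.21 and -1.74 with siFoxO6-3 and of -0.88, -1.21, -0.40 and -1.30 with siFoxO6-2, and fell in all 8 arrays (-1.30, SE 0.07, limma adjusted p = 0.00134). With median centring of the arrays Foxo6 stood at -0.69 and was not called (limma adjusted p = 0.0672), which was -0.79 relative to all features. There it had -1.06 with siFoxO6-3 and -0.31 with siFoxO6-2 (limma adjusted p = 0.285 and 0.355), and 0% of all features were called with either siRNA. Of 12 markers of cortical neurons and progenitors, 10 were measured, and all 10 were above the empty spots of the array in both channels on all arrays. Among these 10, Bcl11b, a transcription factor of deep-layer neurons, fell (-0.55, SE 0.11, limma adjusted p = 0.0201) and was below 0 on all 8 arrays, and Pax6, a transcription factor of radial glia, fell with siFoxO6-2 (-0.39, limma adjusted p = 0.0393). The list median was -0.11. Other genes of the list pointed up without passing the test. Tbr1 and Sox2 had 0.32 each (limma adjusted p = 0.103 and 0.161), and Neurod6 had 0.33 with siFoxO6-2 (limma adjusted p = 0.073). With median centring of the arrays Bcl11b stood at 0.11, like the median of all features, and Pax6 with siFoxO6-2 at 0.34. The arrays were not alike. Pairwise correlations of the log2 ratios over all features ran between 0.046 and 0.724, and siFoxO6-3 replicate 4 (median correlation with the others 0.145), siFoxO6-2 replicate 3 (0.255) and siFoxO6-3 replicate 3 (0.285) resembled the others least. Counts are therefore given with and without these 3 arrays. Markers of other cells were also called, in a fit that called 13.3% of all features (6.72% higher and 6.59% lower). Of the 13 markers of microglia and macrophages 6 rose and 0 fell, among them Ctss (1.04), Lyz2 (0.87) and Csf1r (0.46). P2ry12, 1 of the 6, was above the empty spots in both channels on 3 arrays. Other markers of this list stayed near 0, such as Cx3cr1 (0.01), Mrc1 (-0.01), C1qb (-0.03) and Fcer1g (0.04). The list medians were 0.05 to 0.10 on siFoxO6-3 arrays and 0.11 to 0.45 on siFoxO6-2 arrays. Of 10 pancreatic acinar markers 0 rose and 3 fell: Amy1 (-2.29), Amy2a4 (-2.15) and Pnlip (-2.04). In the same list Prss2 had -1.06 and was not called, while Cpa1 (-0.01), Cela1 (-0.07) and Ctrb1 (0.05) stayed near 0. Cldn5, 1 of 12 endothelial and pericyte markers, rose, and Hba-x, 1 of 8 erythroid markers, fell, neither share being beyond the 13.3%. Of 12 muscle markers 0 passed the test. The part of these cells in the results below was not tested.

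With both siRNAs in 1 estimate, 14 of the 83 genes passed the test (limma, Benjamini-Hochberg adjusted p under 0.05 over all 25310 features), 10 higher and 4 lower than in scrambled cells. That is 16.9%, against 13.3% of all features (6.72% higher and 6.59% lower) and 25.6% of the brightest 25% of features, and 77 of the 83 genes were brighter than the median feature. With loess the called genes were thus not a larger share than among bright features. With median centring they were, with 15 of the 83 genes against 297 higher and 1 lower of 6328 bright features. Those that rose were Ndufc1, Ndufb3, Ndufs4 and Ndufv2 of complex I, Sdhaf1 and Sdhaf2 of complex II, Cox7b of complex IV, and Atp5s, Atp5l and Atp5j of complex V. Those that fell were Uqcrc1 of complex III and Atp5d, Atp5b and Atp5sl of complex V, and for all 4 of these median centring of the arrays, which put the median of all features at 0.11, gave a value at or above 0. Relative to that median Uqcrc1, Atp5d and Atp5sl stood at -0.07, -0.11 and -0.03, and Atp5b at 0.48. The median over the 83 genes was 0.05, against 0.0018 over all features, with single genes between -0.51 and 0.58.

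Without the 3 arrays named above, 31 genes were called, 11 higher and 20 lower, among 24.8% of all features, and the median was -0.04. That fit was added after seeing the data, keeps only replicates 1 and 2 of siFoxO6-3, and leaves fewer arrays to measure the spread. Of the arrays left out, siFoxO6-3 replicate 4 and siFoxO6-2 replicate 3 had the highest medians of the 83 genes (0.34 and 0.29). More lower genes therefore go along with the choice of arrays. Of the 14 genes, 13 kept their call and direction and Sdhaf2 did not (adjusted p = 0.0523). Without siFoxO6-2 replicate 3 alone 20 genes were called, 9 higher and 11 lower, among 21.7% of all features. Leaving out siFoxO6-2 replicate 4 left 6 called genes, siFoxO6-3 replicate 2 left 7, and siFoxO6-2 replicate 1 or siFoxO6-3 replicate 1 left 8, among 6.03% to 6.44% of all features. Of the 6 and the 7 genes 0 were lower, and each fit with 8 had 6 higher and 2 lower. When the scrambled pool was given the spread of 1 siRNA pool, limma called 0 genes and 0% of all features (3 of the 83 genes had an unadjusted p under 0.05).

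**Figure D1:**
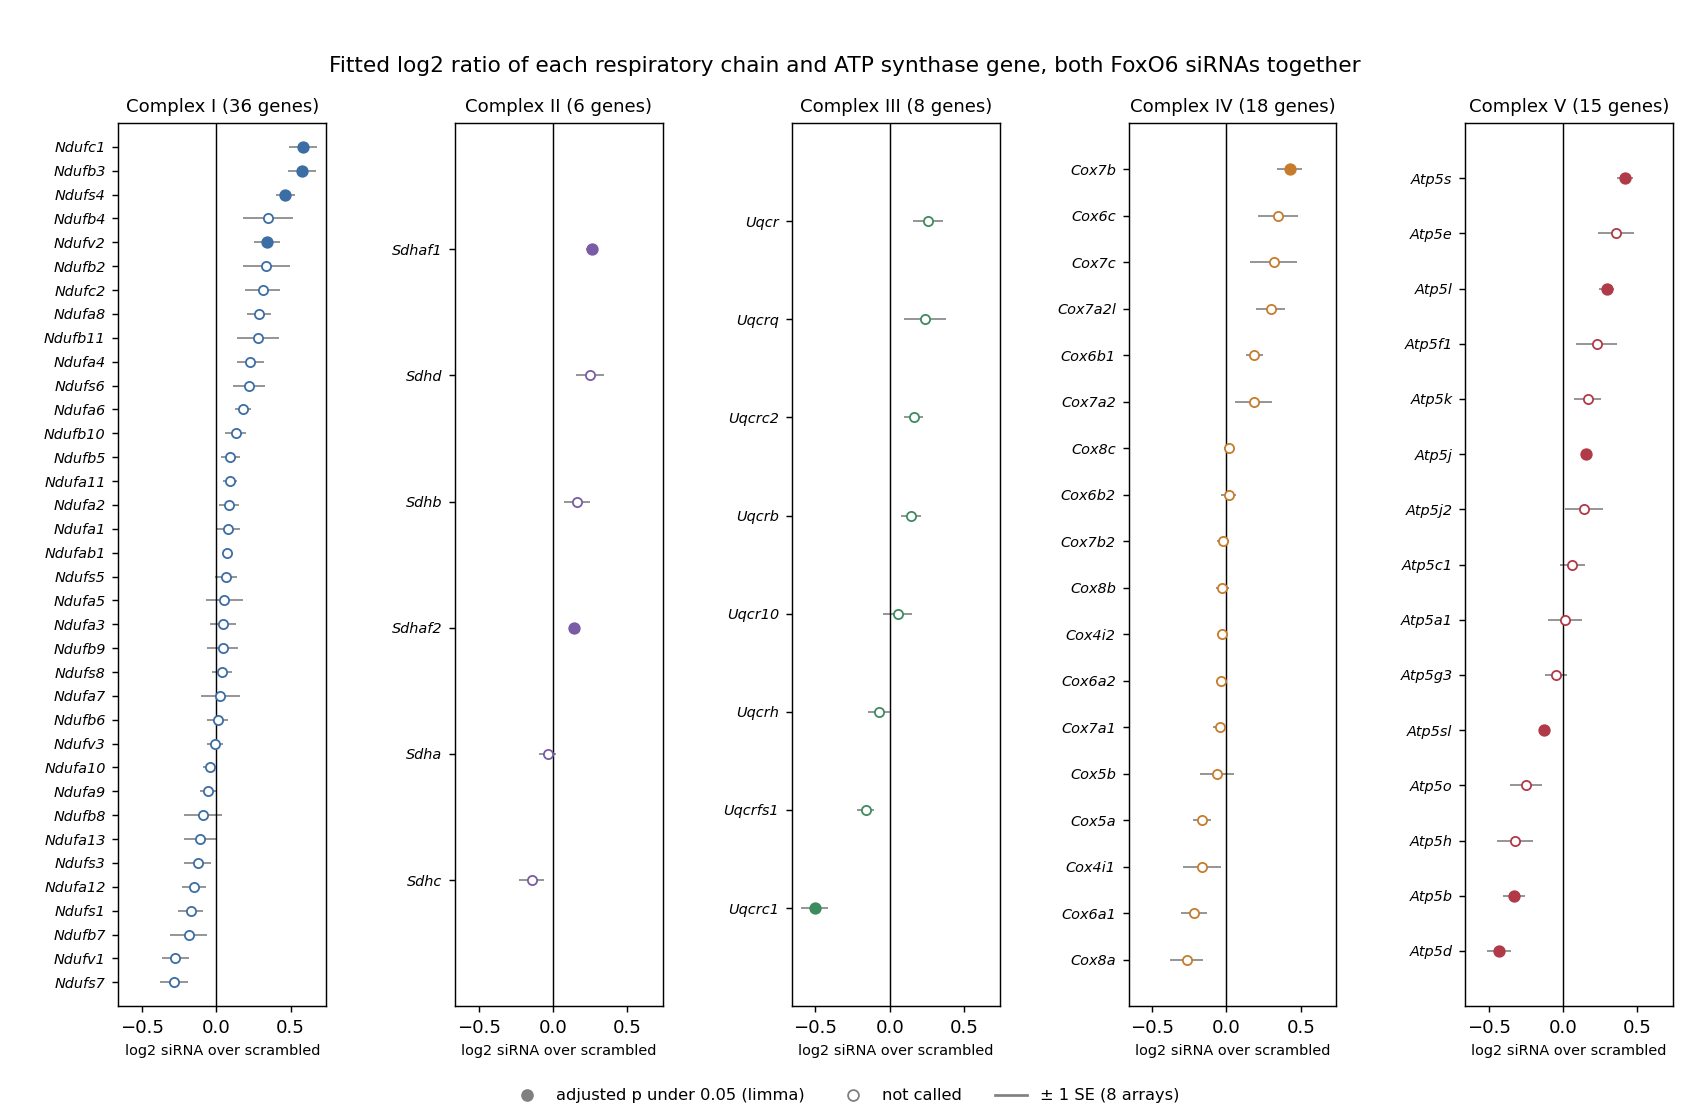
Fitted log2 ratio of siRNA over scrambled for each of the 83 genes (x axis), both siRNAs together, by complex, with bars of 1 standard error over 8 arrays and filled points for adjusted p under 0.05. Filled points lie to the right in complexes I, II and IV, and on both sides in complex V, while the 4 filled points on the left (Uqcrc1, Atp5d, Atp5b and Atp5sl) reach 0 or more with median centring, where the median of all features is 0.11.

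Complex I takes electrons from NADH. Of its 36 genes 4 rose and 0 fell, which is 11.1%. This share and those of the other complexes stand beside 13.3% of all features and 25.6% of bright features. Of the 4 genes that rose, 3 code for accessory subunits, the supernumerary proteins around the catalytic core. Ndufc1, a small membrane-arm subunit, had log2 ratios of 0.43, 0.33, 0.73 and 1.14 with siFoxO6-3 and of 0.57, 0.42, 0.71 and 0.35 with siFoxO6-2. All 8 arrays were above 0, and the ranges of the siRNAs overlapped. The fold was 1.50 (log2 0.58, SE 0.09, limma adjusted p = 0.00903).

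Ndufb3, also of the membrane arm, had 0.50, 0.28, 0.81 and 1.01 with siFoxO6-3 and 0.57, 0.67, 0.67 and 0.12 with siFoxO6-2. Again no array was below 0, and the lowest was siFoxO6-2 replicate 4 (log2 0.58, SE 0.09, limma adjusted p = 0.0101). Ndufs4 lies in the matrix arm, and its loss destabilises complex I and causes encephalopathy in mice. It had 0.29, 0.54, 0.22 and 0.99 with siFoxO6-3 and 0.32, 0.44, 0.46 and 0.47 with siFoxO6-2. The siFoxO6-2 arrays lay close together and the siFoxO6-3 arrays spread on both sides of them (log2 0.47, SE 0.06, limma adjusted p = 0.00584). Ndufc1, Ndufb3 and Ndufs4 were called in all 8 fits that left out 1 array.

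Ndufv2, an iron-sulphur protein beside the NADH site, was the one core subunit called. It had 0.47, 0.56, -0.28 and 0.32 with siFoxO6-3 and 0.37, 0.26, 0.50 and 0.51 with siFoxO6-2. Only siFoxO6-3 replicate 3 was below 0, and the call (log2 0.34, SE 0.09, limma adjusted p = 0.0456) held without that array and was lost without any other single one. As the mean of its probes, Ndufv2 was at 0.10 and not called. The 6 measured core subunits had a median of -0.15 and the 30 accessory subunits one of 0.08, with 1 and 3 called, while median centring put the medians at 0.37 and 0.68, against 0.54 for the brightest 25% of features. Ndufv1, which holds the NADH site, and Ndufs7, an iron-sulphur protein, had -0.28 each and did not pass the test (limma adjusted p = 0.0911 and 0.101). In the fit without the 3 arrays named above both were called lower, with -0.41 and -0.46. So were the core subunit Ndufs3 (-0.24) and the accessory subunits Ndufb7 (-0.41), Ndufa13 (-0.33), Ndufa12 (-0.30) and Ndufb8 (-0.30). Ndufs3, Ndufb7, Ndufa13 and Ndufb8 were named after their values were seen, as were Ndufa8 and Atp5sl below.

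Complex II, succinate dehydrogenase, has 4 subunits, and 0 of these 4 passed the test. Both called genes of the 6, 33.3%, code for assembly factors. Sdhaf1, which helps to place the iron-sulphur clusters of Sdhb, had 0.21, 0.23, 0.36 and 0.40 with siFoxO6-3 and 0.09, 0.28, 0.27 and 0.25 with siFoxO6-2. All arrays were above 0 and the siRNAs overlapped (log2 0.26, SE 0.03, limma adjusted p = 0.00567), and the call held in all 8 fits that left out 1 array.

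Sdhaf2, which helps to attach the flavin to Sdha, had 0.22, -0.04, 0.19 and -0.16 with siFoxO6-3 and 0.31, 0.04, 0.31 and 0.23 with siFoxO6-2. All siFoxO6-2 arrays and 2 siFoxO6-3 arrays were above 0. The call (log2 0.14, SE 0.03, limma adjusted p = 0.0354) held without siFoxO6-2 replicate 3 and without siFoxO6-3 replicate 4, and was lost without any other single array. Of the subunits, Sdhd, a membrane anchor, had 0.25 (SE 0.09), and Sdhb, the iron-sulphur subunit, had 0.16 (SE 0.09). Among the fits that left out 1 array, Sdhd was called in the one without siFoxO6-2 replicate 2 (0.35, adjusted p = 0.0109).

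Complex III carries electrons on to cytochrome c. Of its 8 genes 1 fell and 0 rose, 12.5%. Uqcrc1, core protein 1 of the matrix side, had -0.69, -0.37, -0.24 and -0.04 with siFoxO6-3 and -0.87, -0.87, -0.28 and -0.68 with siFoxO6-2. All 8 arrays were below 0, with 3 of the 4 siFoxO6-2 arrays near or beyond the lowest siFoxO6-3 array. The fold was 0.705 (log2 -0.51, SE 0.09, limma adjusted p = 0.0139). The call was lost without siFoxO6-2 replicate 4 (adjusted p = 0.0516) or siFoxO6-3 replicate 2 (0.0528), and with median centring, where Uqcrc1 stood at 0.03, against 0.11 for the median of all features.

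Its partner Uqcrc2, core protein 2, had a fitted value of 0.16 (SE 0.06, limma adjusted p = 0.141) and did not pass the test. The Rieske iron-sulphur protein Uqcrfs1 had -0.17, -0.24, -0.35 and -0.32 with siFoxO6-3 and -0.14, -0.23, 0.33 and -0.18 with siFoxO6-2. Of the 8 arrays only siFoxO6-2 replicate 3 was above 0. Uqcrfs1 did not pass the test over all arrays (-0.16, limma adjusted p = 0.118), and was called without that array (-0.22, adjusted p = 0.00516). Uqcr, a small subunit now named Uqcr11, had 0.26 (SE 0.10).

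Complex IV, cytochrome c oxidase, passes electrons to oxygen. Of its 18 genes 1 rose and 0 fell, 5.56%. Cox7b, a small structural subunit coded on the X chromosome, had 0.59, 0.13, 1.07 and 0.61 with siFoxO6-3 and 0.38, 0.21, 0.10 and 0.32 with siFoxO6-2. All arrays were above 0, and 3 of the siFoxO6-3 arrays exceeded every siFoxO6-2 array. The fold was 1.34 (log2 0.43, SE 0.08, limma adjusted p = 0.0196), and the call was lost without siFoxO6-2 replicate 1, 2 or 4 or siFoxO6-3 replicate 1 (adjusted p of 0.0501 to 0.0696). Cox6b1, at the face that docks cytochrome c, had 0.19 (SE 0.06, limma adjusted p = 0.0737), and Cox7a2l, linked with supercomplexes in mice, had 0.30 (SE 0.10, limma adjusted p = 0.0900). Cox5a, a matrix-side subunit, had -0.16 (SE 0.06), and was called without siFoxO6-2 replicate 3 (-0.22, adjusted p = 0.0107).

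Of complex IV 14 isoform genes were measured, and Cox7b was the 1 called among them. The ubiquitous forms Cox4i1 (-0.17), Cox6a1 (-0.22), Cox7a2 (0.18) and Cox8a (-0.27) did not pass the test. The forms of muscle, lung or testis stayed close to 0: Cox4i2 had -0.03, Cox6a2 -0.04, Cox6b2 0.01, Cox7a1 -0.04, Cox7b2 -0.02, Cox8b -0.03 and Cox8c 0.02. Several of these were dim. Cox8c was above the empty spots in both channels on 0 arrays, Cox7b2 and Cox8b on 4 and Cox4i2 on 6, so no difference can be read from Cox8c, and those of the other 3 are bounded by the background.

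Complex V makes ATP. By prefix 3 of its 15 genes rose and 3 fell, 40.0%, against 13.3% of all features and 25.6% of bright features. That count includes Atp5s and Atp5sl, whose current names are not those of ATP synthase subunits. It also includes Atp5b, whose probes differ in direction. Atp5s, named coupling factor B in earlier work and now Dmac2l, had 0.46, 0.34, 0.54 and 0.07 with siFoxO6-3 and 0.67, 0.38, 0.34 and 0.55 with siFoxO6-2. All arrays were above 0, with siFoxO6-3 replicate 4 lowest (log2 0.42, SE 0.05, limma adjusted p = 0.00506). Atp5l, subunit g of the membrane part, had 0.15, 0.35, 0.22 and 0.49 with siFoxO6-3 and 0.07, 0.34, 0.47 and 0.27 with siFoxO6-2. It too was above 0 on all arrays (log2 0.29, SE 0.05, limma adjusted p = 0.0115). Both calls held in all 8 fits that left out 1 array.

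Atp5j, coupling factor 6 of the stalk, had 0.21, 0.19, 0.16 and -0.05 with siFoxO6-3 and 0.22, 0.12, 0.17 and 0.19 with siFoxO6-2. All but siFoxO6-3 replicate 4 were above 0. The change was small (log2 0.15, SE 0.03, limma adjusted p = 0.0271), and the call held without siFoxO6-3 replicate 4 or siFoxO6-2 replicate 3 and in no other fit that left out 1 array.

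Atp5d, the delta subunit of the rotating stalk, had -0.50, -0.33, -0.09 and -0.25 with siFoxO6-3 and -0.82, -0.67, -0.11 and -0.69 with siFoxO6-2. All 8 arrays were below 0, and replicate 3 of each siRNA was nearest to it. The fold was 0.741 (log2 -0.43, SE 0.08, limma adjusted p = 0.0165), but 2e-04 on the log2 scale with median centring (-0.11 relative to all features), and the call was lost without siFoxO6-2 replicate 2 or 4 or siFoxO6-3 replicate 2 (adjusted p of 0.0504 to 0.0604). Atp5sl, now Dmac2 and linked with complex I assembly, had -0.13 (SE 0.03, limma adjusted p = 0.0428). That call was held by 1 of the 8 fits that left out an array, the one without siFoxO6-3 replicate 3.

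Atp5b, the catalytic beta subunit, had -0.48, -0.22, -0.84 and -0.27 with siFoxO6-3 and -0.46, 0.00, -0.02 and -0.36 with siFoxO6-2 at its brightest probe. The siFoxO6-3 arrays were all below 0, and 2 siFoxO6-2 arrays lay at about 0 (log2 -0.33, SE 0.07, limma adjusted p = 0.0277). Other probes of Atp5b went the other way: the second brightest gave 0.34 (limma adjusted p = 0.111) and the third 0.49, which passed the test when every probe was tested by itself (limma adjusted p = 0.0388). The mean of its probes was 0.14, so the direction of Atp5b is not settled by these probes. The call was lost without siFoxO6-2 replicate 1, 2 or 4 or siFoxO6-3 replicate 1, 2 or 3. Atp5g3, the 1 gene of the proton-carrying c subunit that was measured, had -0.05 (SE 0.07).

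**Figure D2:**
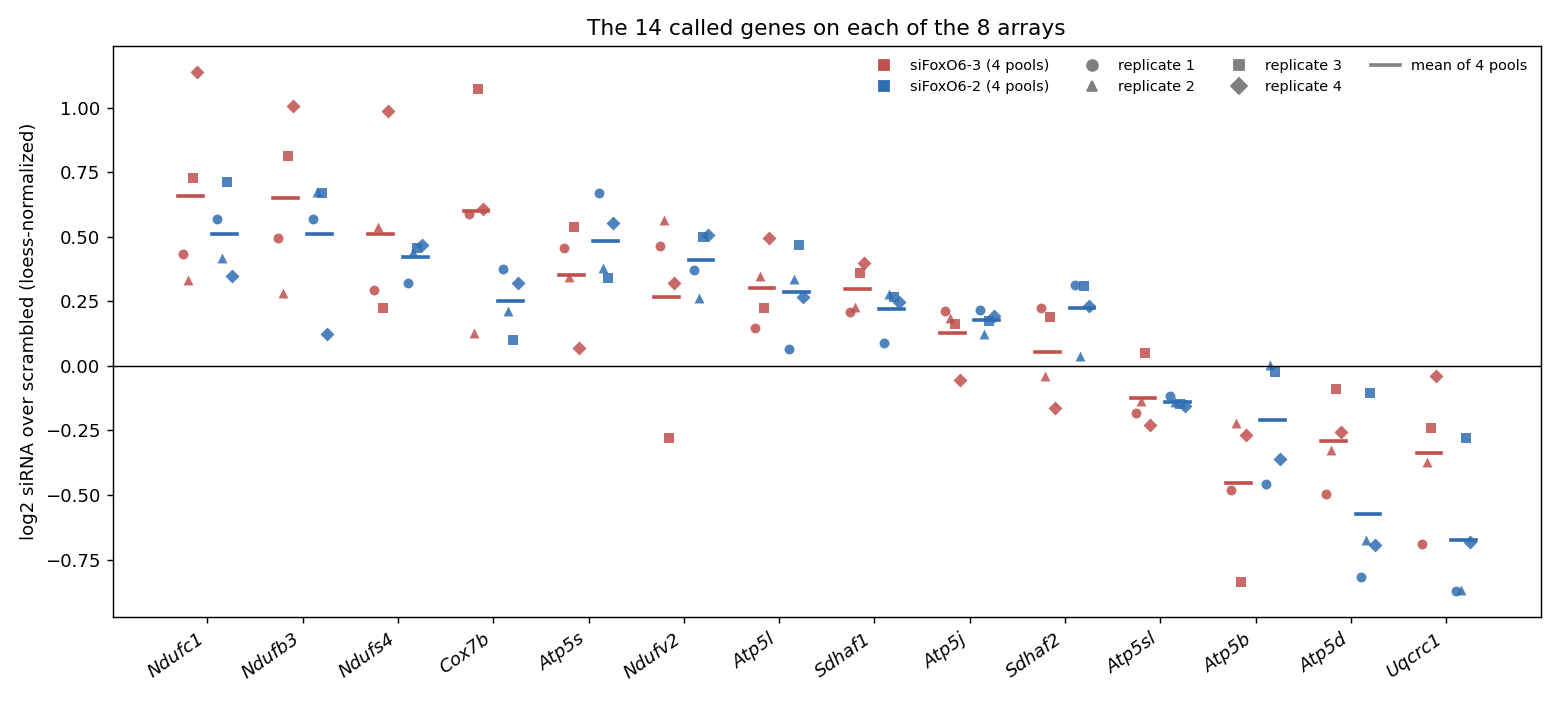
Log2 ratio of siRNA over scrambled (y axis) of the 14 called genes on each of the 8 arrays, siFoxO6-3 in red and siFoxO6-2 in blue, with symbols for replicates and bars for the mean of 4 pools. The 7 genes Ndufc1, Ndufb3, Ndufs4, Cox7b, Atp5s, Atp5l and Sdhaf1 lie above 0 on all 8 arrays, and Atp5d and Uqcrc1 lie below 0 on all 8, where median centring gives values at or just above 0, against 0.11 for the median of all features.

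In all, 9 of the 83 genes had the same sign on all 8 arrays, 7 above 0 and 2 below, and 8.67% of all features did so. The second probes bear on the single genes. Of the 83 genes 50 had 1 probe and 33 had several, and in 20 a second probe exceeded the empty spots on every array. In 16 of the 20 both probes had the same sign. Among called genes, the second probes of Ndufc1 (0.73), Uqcrc1 (-0.57), Atp5s (0.39) and Sdhaf2 (0.29) each passed the test on their own in the direction of the first, with limma adjusted p of 0.00182 to 0.0177. With median centring the brightest probe of Uqcrc1 stood at 0.03, which was -0.07 relative to all features and -0.51 relative to the brightest 25%.

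Opposite signs were found for Atp5b, Sdha, Ndufv3 and Uqcrh. Sdha, the flavin subunit of complex II, gave -0.04 at its brightest probe and 0.53 at its second (SE 0.12, limma adjusted p = 0.0329). Its second probe read 0.65, 0.87, -0.10 and 0.00 with siFoxO6-3 and 0.88, 0.43, 0.57 and 0.97 with siFoxO6-2, so that replicates 3 and 4 of siFoxO6-3 stood apart from the other 6. Ndufv3, an accessory subunit of the NADH module, gave -0.01 and 0.27, and Uqcrh, the hinge protein of complex III, gave -0.07 and 0.13, with 0 of these 4 values called. For Ndufa8, an accessory subunit of complex I, the first probe (0.29, limma adjusted p = 0.0562) and the second (0.33, limma adjusted p = 0.0426) lay on either side of the threshold.

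**Figure D3:**
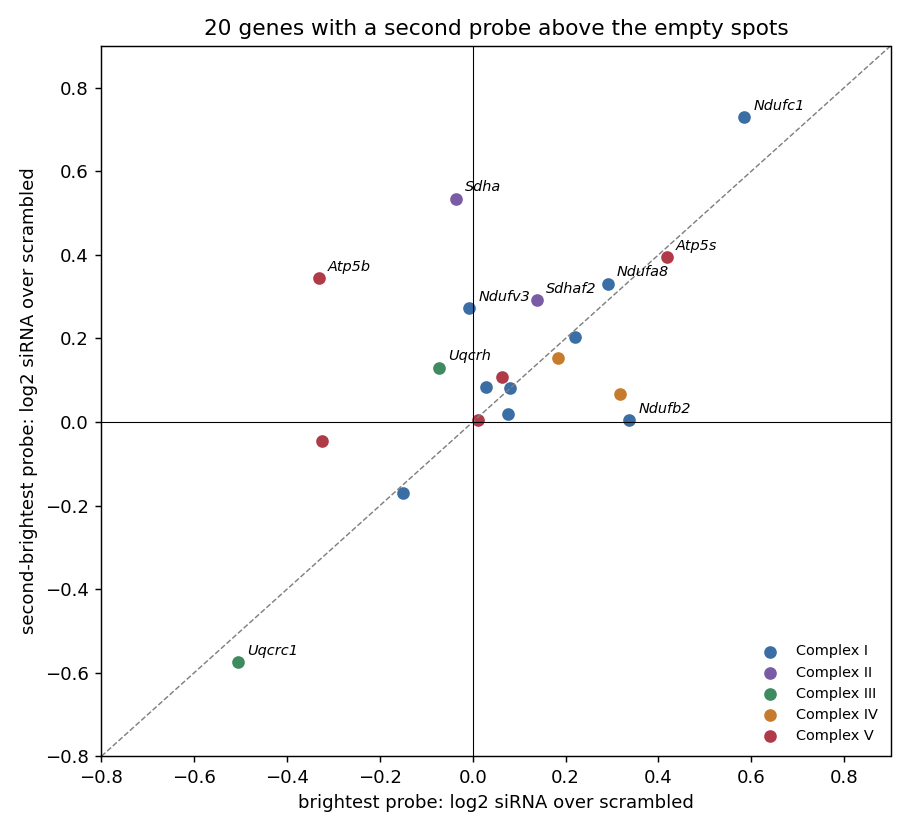
Fitted log2 ratio of siRNA over scrambled at the brightest probe (x axis) and at the second brightest probe (y axis) of the 20 genes with a second probe above the empty spots, coloured by complex, with the line of equal values dashed. Ndufc1, Atp5s and Uqcrc1 lie near the line, and Atp5b and Sdha lie far above it.

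Taken singly, the siRNAs gave fewer calls. With siFoxO6-3, 1 of the 83 genes was called, Sdhaf1 (0.30 ± 0.09, SD, n = 4, limma adjusted p = 0.0493), which is 1.20%, against 0.901% of all features (0.423% higher and 0.478% lower). That call was lost without any single array but siFoxO6-2 replicate 3, whose absence gave 9 called genes, 7 higher and 2 lower, among 4.69% of all features. With siFoxO6-2, 6 genes were called, 7.23% against 8.79% of all features (4.3% higher and 4.48% lower). Atp5s (0.48 ± 0.15), Ndufs4 (0.42 ± 0.07), Sdhaf2 (0.22 ± 0.13) and Sdhaf1 (0.22 ± 0.09) rose, and Uqcrc1 (-0.67 ± 0.28) and Atp5d (-0.57 ± 0.32) fell (SD, n = 4 pools, limma adjusted p of 0.0131 to 0.0374). In limma after median centring 0 genes and 0% of all features were called with either siRNA (53 of the 83 genes with siFoxO6-3 and 49 with siFoxO6-2 had an unadjusted p under 0.05). Median centring put Uqcrc1 at -0.12 and Atp5d at -0.14 with siFoxO6-2. Without siFoxO6-2 replicate 3, 17 genes were called with siFoxO6-2, 3 higher and 14 lower, among 16.9% of all features. Without siFoxO6-2 replicate 1, 2 or 4 the counts were 0, 1 and 0, among 1.51%, 3.85% and 1.39% of all features. The count was 2 without siFoxO6-3 replicate 2 (1 higher and 1 lower, among 5.78%) and 12 without siFoxO6-3 replicate 4 (8 higher and 4 lower, among 9.6%).

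The siRNAs were then compared with each other, a contrast in which the shared scrambled pool drops out. Of the 83 genes 0 differed (limma, 2 at an unadjusted p under 0.05), against 0.00395% of all features, of which 7.26% had an unadjusted p under 0.05. Fitted values were higher with siFoxO6-3 for 65 of the 83 genes, and the median difference, siFoxO6-3 minus siFoxO6-2, was 0.10 on the log2 scale. The members' median was 0.11 with siFoxO6-3 and 9e-04 with siFoxO6-2. The median difference was 0.01 without siFoxO6-3 replicate 4, 0.21 without siFoxO6-2 replicate 3, and 0.06 without siFoxO6-2 replicate 2 or 4, so its size rests on single arrays.

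The smallest p of the contrast belonged to Ndufa12, an accessory subunit of complex I, with -0.14, -0.08, 0.12 and 0.53 with siFoxO6-3 and -0.65, -0.26, -0.24 and -0.49 with siFoxO6-2. All siFoxO6-3 arrays were above all siFoxO6-2 arrays, a difference of 0.52 (95% interval 0.15 to 0.89, unadjusted p = 0.0130, limma adjusted p = 0.472). Ndufa4 had 0.44 ± 0.47 with siFoxO6-3 and 0.02 ± 0.13 with siFoxO6-2 (SD, n = 4), and the difference of 0.43 had an interval of -0.01 to 0.86. In the other complexes the differences closest to a call were -0.17 for Sdhaf2 (-0.33 to -0.02), 0.34 for Uqcrc1 (-0.09 to 0.76), 0.35 for Cox7b (-0.05 to 0.74) and 0.28 for Atp5d (-0.10 to 0.66). The intervals are wide, and a missed threshold does not show that the siRNAs acted alike.

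On siFoxO6-3 replicate 4 and siFoxO6-2 replicate 3 the medians of all 5 complexes lay above 0, and on 5 of the other 6 arrays they were of both signs. With siFoxO6-3 the median of the 83 genes was -0.04, 0.04, 0.08 and 0.34 in replicates 1 to 4, and with siFoxO6-2 it was -0.09, -0.12, 0.29 and -0.03, while the median of all features was within 0.0124 of 0 on every array. The number of the 83 genes above 0 was 36, 46, 50 and 71 with siFoxO6-3 and 31, 27, 66 and 38 with siFoxO6-2. Both arrays with most genes above 0 are among the 3 arrays least like the others. On siFoxO6-3 replicate 4 the complex medians were 0.47, 0.27, 0.43, 0.24 and 0.20 for complexes I to V, and on siFoxO6-2 replicate 3 they were 0.30, 0.29, 0.39, 0.14 and 0.17. On the other 6 arrays the complex medians lay between -0.16 and 0.24, both for siFoxO6-2 replicate 4 (complexes IV and II). The siRNA pool was in Cy5 on the first of these arrays and in Cy3 on the second. The brightest 25% of features had medians of -0.06 and -0.05 there. The median signal of the siRNA channel was 58 and 74 on these arrays, and 93.5 to 123 on the other 6. A link between this signal and the medians of the genes was not tested.

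**Figure D4:**
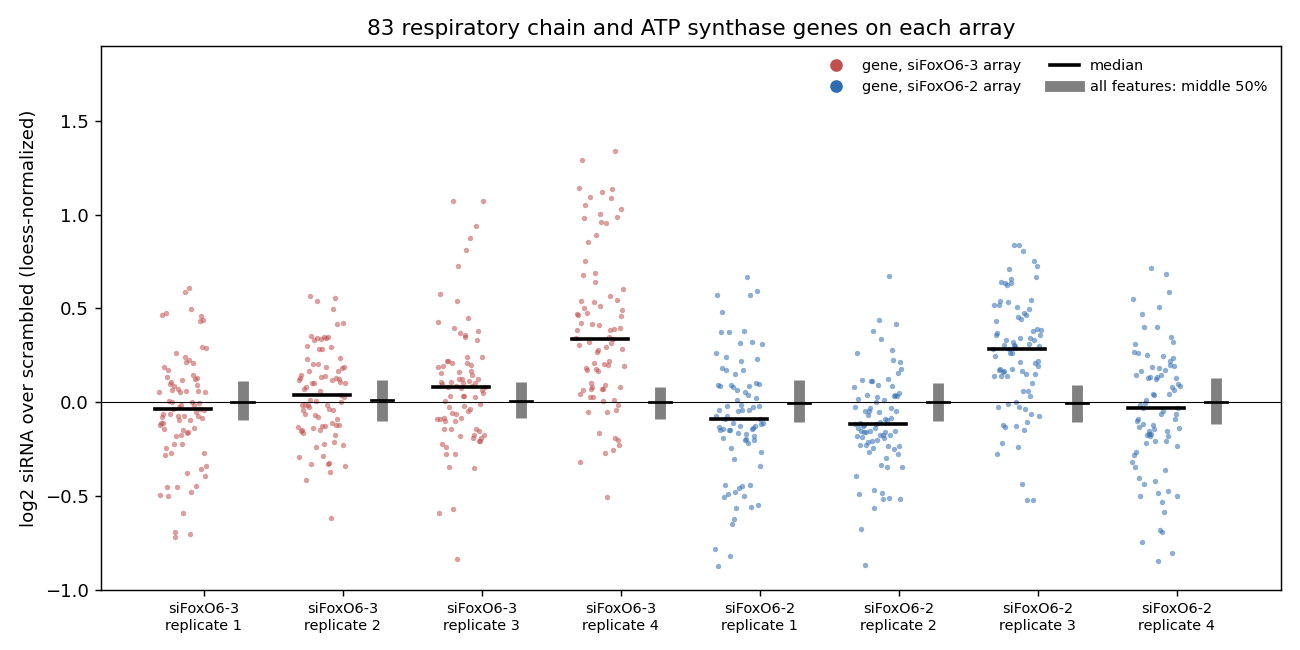
Log2 ratio of siRNA over scrambled (y axis) of the 83 genes on each array, siFoxO6-3 arrays in red and siFoxO6-2 arrays in blue, with the median as a black line and the middle 50% of all features as a grey bar. On siFoxO6-3 replicate 4 and siFoxO6-2 replicate 3 most genes lie above 0, with medians of 0.34 and 0.29, and on the other 6 arrays the medians lie between -0.12 and 0.08.

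The values against 0 depended on the scaling of the arrays, while the median of the 83 genes was above 0 under both scalings. Loess, used for all values above, holds the median ratio near 0 at every brightness. Median centring moves an array by 1 number, and then the median of all features was 0.11, that of the brightest 25% 0.54 and that of the 83 genes 0.66. Relative to all features the genes stood 0.56 higher, and relative to the brightest 25% 0.12 higher. With median centring 15 of the 83 genes were called, 15 higher and 0 lower, among 1.87% of all features, 97% of them higher. Of the 6328 features in the brightest 25%, 297 were called higher and 1 lower. The called share of the 83 genes was thus above that of bright features with median centring, and below it with loess. Of the 15 genes 4, Ndufb3, Ndufc1, Ndufs4 and Atp5l, were also called with loess. Relative to the brightest 25%, Uqcrc1 stood at -0.51, Atp5d at -0.54, Atp5sl at -0.47 and Atp5b at 0.05, while Ndufc1 stood at 0.74, Ndufb3 at 0.72 and Ndufs4 at 0.60.

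**Figure D5:**
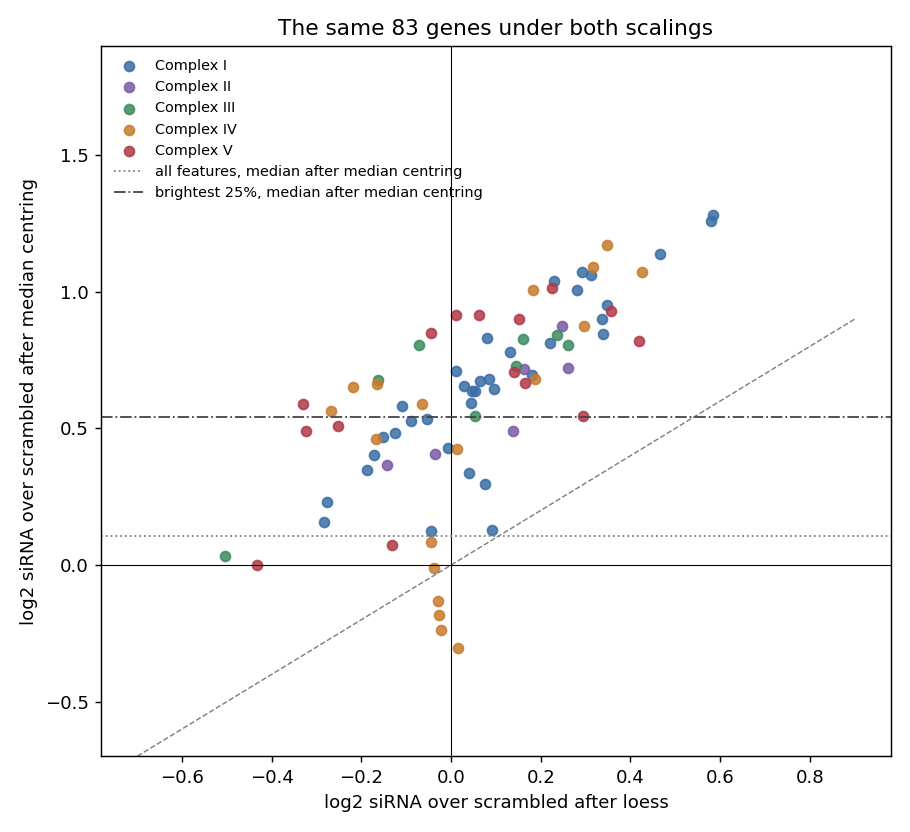
Fitted log2 ratio of siRNA over scrambled of the 83 genes after loess (x axis) and after median centring (y axis), coloured by complex, with the line of equal values dashed and horizontal lines for the medians of all features (0.11) and of the brightest 25% (0.54) after median centring. Nearly all genes lie above the line of equal values, and the genes at the left (Uqcrc1, Atp5d and Atp5b) lie at or above 0 only on the y axis.

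Genes that work with the complexes were counted in the same fit. Their counts stand beside the 13.3% of all features and the 25.6% of the brightest 25% that were called. Of 37 measured assembly factors 9 rose and 2 fell. Ndufaf4, which assembles complex I, had 0.33 (SE 0.04), Cox11, a copper carrier of complex IV, had 0.37 (SE 0.05), and Coa5, listed on the array as 6330578E17Rik and needed for complex IV, had -0.34 (SE 0.04). Of 20 measured regulators of mitochondrial biogenesis 5 rose and 1 fell, with 0.61 for Ssbp1, which coats single-stranded mitochondrial DNA, 0.45 for Mterf4, listed as Mterfd2, and 0.42 for Polg2, a subunit of the mitochondrial DNA polymerase. Of 17 genes of the tricarboxylic acid cycle 1 rose and 2 fell: citrate synthase, Cs, had -0.62, Dlst -0.58 and Pdhb 0.35. These 9 genes had limma adjusted p of 0.00344 to 0.0114, and Ndufaf4, Coa5 and Dlst were not called as the mean of their probes. With median centring Cs stood at 0.14 and Coa5 at 0.31, which was 0.04 and 0.20 relative to all features and -0.40 and -0.23 relative to the brightest 25%.

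Subunits outside the symbol rule did not add calls over all 8 arrays after loess. Of the 4 further genes measured, Cyc1, Usmg5, Atpif1 and mt-Atp6, 0 were called. Cyc1, cytochrome c1 of complex III, fell without siFoxO6-2 replicate 3 (-0.28, adjusted p = 0.00338). Usmg5, a small membrane subunit of the ATP synthase, had 0.45 (SE 0.16) and was above 0 on all 8 arrays. Usmg5 was called without siFoxO6-3 replicate 4 (0.27, limma adjusted p = 0.0425) and with median centring (1.13, limma adjusted p = 0.0376). Atpif1, an inhibitor of the ATP synthase, had 0.10 (SE 0.13). The mitochondrially coded mt-Atp6 of the ATP synthase had 0.49 and ranged between -0.98 and 2.20 over the arrays. It was not called over all 8 arrays, and was called without siFoxO6-3 replicate 4 (0.78, adjusted p = 0.0174).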

How the data were processed

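Total RNA of sorted cortical cells was amplified with T7 polymerase and hybridised on 2-colour mouse arrays of 45220 spots, 4046 of them control spots, per the labels' protocols and the file headers. The deposited scanner files hold the intensity of each spot and its local background per channel, not normalized by the authors. The deposited table of log2 ratios by the authors served as an alternative. It is centred near 0 on each array and its columns correlated with the loess ratios at 0.850 to 0.971. How it was normalized is not given in the sources used here.

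Background was corrected with normexp (offset 50), each array was loess-normalized with control spots at weight 0, and log2 ratios were turned to siRNA over scrambled (R 4.3.3, limma 3.58.1). Of 41174 gene probes 34186 had 1 symbol in the platform annotation and 6988 none. A gene was taken at its brightest probe. Symbols of all 83 members matched the RefSeq gene table (GRCm38.p6), 4 under another current symbol. lmFit and eBayes were run with 1 coefficient per siRNA and a dye term (5 residual degrees of freedom), two-sided, over 25310 features. Calls have a Benjamini-Hochberg adjusted p under 0.05. A probe counted as above the empty spots when it exceeded 97.5% of 959 spots of the 2 dimmest and most numerous control reporters, which the files do not name as empty. The number of arrays limits the precision. Pools are described as independent in the design, and p-values measure the spread between these pools.

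Members, lists and the rule for named genes were chosen with earlier results of these data known. The rule named, in each complex, up to 4 genes of smallest p with both siRNAs and up to 2 for the difference, called genes where a complex had 5 or fewer, the complex IV isoforms, c subunit genes, genes whose second probe had the opposite sign, and up to 3 genes of each accompanying list. Alternatives were another scaling, background, filter on dim probes, dye term, replicate block, probe rule, array weights, spread of the scrambled pool, the deposited ratios, and leaving out each array. Leaving out 3 arrays together was added after seeing the data.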

Additional observations from a re-analysis of the deposited data

Results flagged for a closer look

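In groups of 4 arrays, 14 of 178 tests (7.87%) found the highest or lowest array far from the other 3 (a gap beyond Dixon's 95% critical value for 4 samples), where chance gives about 1 in 20. All values are log2 ratios of siRNA over scrambled.

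On siFoxO6-3 replicate 4, Cox6c (1.34, others 0.20 to 0.35), Atp5j2 (1.03, others -0.08 to 0.09) and Ndufa1 (0.54, others -0.04 to 0.03) stood above the other siFoxO6-3 arrays. On siFoxO6-3 replicate 3, the dim isoform Cox7b2 stood below them (-0.083, others 0.06 to 0.08).

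On siFoxO6-2 replicate 3 the median of the complex III genes was 0.39, against -0.08 on each of the other siFoxO6-2 arrays. On the same array Ndufb2 (0.72), Ndufb9 (0.54), Uqcrfs1 (0.33), Ndufa13 (0.31), Atp5o (0.14) and Ndufs7 (-0.063) stood above the others. For Atp5o the others lay between -0.50 and -0.48, and for Ndufs7 between -0.58 and -0.56. In other siFoxO6-2 replicates, Ndufb6 stood above (0.40, replicate 4), and Ndufab1 (-0.11, replicate 2) and Sdhaf1 (0.090, replicate 1) below.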

How the results depend on the processing

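With both siRNAs together the count of 14 became 9 with a replicate block (7 higher, 2 lower), 23 of 132 probes with every probe tested by itself (18 higher, 5 lower, among 11.8% of all probes), 25 with array weights (13 higher, 12 lower, among 24.3% of all features), 31 without the 3 arrays least like the others (chosen after seeing the data), and 0, of the members and of all features, when the scrambled pool was given the spread of 1 siRNA pool. With siFoxO6-3 the count of 1 became 0 with median centring, no background correction, the replicate block, the deposited ratios or a spread for the scrambled pool, 2 of 132 with every probe, 7 with array weights (2.69% of all features) and 10 without the 3 arrays (5 higher, 5 lower, 8.57%). With siFoxO6-2 the count of 6 became 0 with median centring, 14 of 132 with every probe, 23 with array weights (9 higher, 14 lower, 23.6% of all features), 26 without the 3 arrays (9 higher, 17 lower, 22.1%) and 0 with a spread for the scrambled pool. At an unadjusted p under 0.05 these limma counts of 0 stood at 3 with both siRNAs and 2 with each siRNA (spread of the scrambled pool), 53 with siFoxO6-3 and 49 with siFoxO6-2 (median centring), and, with siFoxO6-3, 21 (no background correction) and 23 each (block and deposited ratios). Leaving out 1 array at a time gave 6 to 20 genes with both siRNAs, 0 to 9 with siFoxO6-3 and 0 to 17 with siFoxO6-2, and 0 genes differed between the siRNAs in each of these fits. The counts of 0 there had 15 to 23 genes at an unadjusted p under 0.05 with siFoxO6-3 and 13 to 16 with siFoxO6-2.

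The median of the genes was 0.66 with median centring and 0.01 to 0.11 without 1 array. With median centring and both siRNAs Uqcrc1 turned to 0.033, Atp5b to 0.59, Atp5d to 2e-04, Atp5sl to 0.072, Coa5 (6330578E17Rik) to 0.31 and Cs to 0.14, and with siFoxO6-2 Coa5 turned to 0.31 and Cs to 0.020. These are values against 0 in a scaling that puts the median of all features at 0.11 and of the brightest 25% at 0.54. The mean of its probes turned Atp5b to 0.14. Without the 3 arrays Ndufa7 turned to -0.24 and Ndufb9 to -0.16. The causes were not tested. Of 2181 values of single genes under alternatives, 1894 kept direction and side of the threshold, 212 lost a call, 64 gained one and 11 turned.

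Whether the replicate numbers pair the pools is not settled. Deviations of same-numbered pools from their siRNA means correlated at 0.534, 0.217, -0.098 and -0.275. Residuals of the fit with the dye term correlated at 0.36, -0.167, -0.318 and -0.543. Same-numbered pools also shared the dye, and pools of different numbers were not compared. The block ended the calls of Ndufv2, Sdhaf2, Atp5b, Atp5j and Atp5sl (adjusted p of 0.0601 to 0.0831).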
